A study of Mus musculus with 17 samples.

Results

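The Notch receptors Notch1, Notch2 and Notch3, the ligands Jag1 and Jag2, the HES/HEY repressor genes Hes1, Hes2, Hes6 and Hey1, and the feedback gene Nrarp were followed in RNA sequencing of mouse alveolar epithelial type 2 (AT2) cells. These 10 genes, of 43430 gene identifiers in each count table, were found by symbol. The group was chosen by pathway and by measured values: Hes2 had been noted for its low level after bleomycin. The bleomycin values of all 10 are therefore given as a description with no p-value, and how many passed the threshold is stated only as a count beside that of all genes. The ISRIB comparison tests them.

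All 17 libraries came from AT2 cells sorted by flow cytometry from C57BL/6J mice aged 2 months. The first experiment compared naive mice 24 h after vehicle (4 libraries, whose titles say saline) with naive mice 24 h after ISRIB (4 libraries), an inhibitor of the integrated stress response that acts on the translation factor eIF2B. The second set naive mice (4 libraries) against mice 14 days on from bleomycin (5 libraries), which damages the alveoli and is used as a model of lung fibrosis. All 9 of these are labelled as vehicle-treated, with saline in the titles. The first set was made from 3 ng of RNA after poly(A) enrichment and the second from 0.35 ng with a total-RNA kit, so no fit spanned both. A library is named by its group and the replicate number in its title, as in naive 2. The labels used here give no dose and do not say whether each library is 1 mouse, so p-values measure the spread between these libraries, which may be in part technical.

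Notch receptors sit at the cell surface and are activated by Jagged or Delta-like ligands on a neighbouring cell. The metalloprotease ADAM10 and then the gamma-secretase complex cut the receptor, and its freed intracellular part joins RBPJ and a Mastermind protein in the nucleus to turn on genes such as Hes1, Hey1 and Nrarp. HES and HEY proteins repress transcription, HES proteins in part by recruiting the TLE corepressors, while NRARP limits the active Notch complex. In the lung the pathway is best known for setting club against ciliated fate in the airway, and it is also needed for alveoli to form.

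Library totals ran from 10493574 to 15727139 counts with poly(A) enrichment and from 3295257 to 6333166 with the total-RNA kit. All 10 AT2 markers were detected in every group (Sftpc and 9 others, summing to 177116 to 189607 CPM, counts scaled by library size, in the poly(A) set). In the total-RNA set the same sum was 80773 to 88182 CPM in naive libraries and 50423 to 88705 after bleomycin. Its largest part, Sftpc (mean 38526 and 28462 CPM), was not called. Sftpd (log2 fold change 0.58, adjusted p 0.0133 by edgeR) and Napsa (0.40, 0.0425) were called higher. Etv5 was called lower (-0.43, 0.0199), and no other of the 10 was called. Of all genes tested 20.5% were called after bleomycin. Markers of alveolar type 1 cells (6 genes) summed to 963 to 1192 CPM in naive and 1404 to 1771 after bleomycin, with 4 of 6 called higher. Krt8, Krt19, Cldn4 and Sfn, which mark a transitional state between the types, summed to 197 to 238 and 446 to 618 CPM, with 4 of 4 called higher. Endothelial markers (7 genes, 2 of 5 tested called higher) summed to 19.7 to 31.5 and 22.5 to 80.3 CPM. Mesenchymal markers (6 genes, 2 of 3 tested called higher) summed to 3.87 to 10.4 and 12.1 to 95.5 CPM. Of 6 macrophage markers Marco and C1qa had no counts in either group, and the 6 summed to 2.69 to 7.67 CPM over all 9 libraries. Airway markers (7 genes, 2 of 5 tested called higher) summed to 445 to 905 and 480 to 923 CPM, mostly Scgb1a1 (mean 604 and 536 CPM, not called). The 2 called were Foxj1 (mean 3.37 and 16.3 CPM) and Ccdc153 (mean 3.63 and 12.3 CPM). The 5 markers of other immune cells summed to 0 to 1.68 and 0.619 to 3.09 CPM. In the ISRIB comparison the airway sum was 3826 to 4285 in vehicle and 2362 to 4159 CPM in ISRIB libraries, and the transitional sum 266 to 331 and 221 to 270 CPM. The transitional marker Krt19 was called lower after ISRIB (log2 fold change -0.40, adjusted p 0.017 by edgeR), as was the AT2 marker Etv5 (-0.28, adjusted p 0.00817), and no other marker listed was called there. The endothelial sum was 40.5 to 61.6 and 44.4 to 53.9 CPM, and the mesenchymal sum 10 to 17.5 and 9.65 to 17.5 CPM. Type 1 markers were at 1871 to 2055 and 1804 to 1993 CPM, macrophage markers at 4.16 to 5.64 and 4.29 to 6.25 CPM, and other immune markers at 0.362 to 0.582 and 0.192 to 0.881 CPM. The part of these other cell types in the values below was not tested. In such bulk libraries fewer cells of a type and less RNA per cell cannot be told apart.

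Levels were compared per kilobase of exon to limit the effect of gene length on the order. The length was that of all annotated exons of a gene (14.232 kb for Notch1 and 10.782 kb for Notch2). The transcripts present may be shorter, so order and shares depend on it. Notch2 had the highest mean of the 10 genes in all 4 groups, although its range overlapped that of the next gene in all but the ISRIB libraries. It stood at 17.6 ± 1.55 CPM per kb in vehicle libraries (SD, n = 4) and 18.7 ± 1.67 in naive libraries (n = 4). In vehicle libraries Hes6 (15.3), Jag1 (14.1) and Hes2 (13.4 CPM per kb) followed, and the ranges of neighbours in this order overlapped from Notch2 down to Hes1 (10.7). Notch1 (5.63) and Jag2 (2.65) lay apart below them. Nrarp (0.414), Notch3 (0.288) and Hey1 (0.138 CPM per kb) were the lowest in vehicle libraries, and their neighbouring ranges overlapped. In naive total-RNA libraries the same 3 genes closed the order, at 0.219, 0.251 and 0.14 CPM per kb. After bleomycin Notch2 (12.3), Jag1 (11), Hes1 (10.8), Hes6 (7.94) and Notch1 (6.36 CPM per kb) led, neighbours again overlapping, and Hes2 (0.311) lay between Notch3 (0.509) and Hey1 (0.247). Sorted AT2 cells thus carried mostly Notch2 and some Notch1 among the 3 receptors: Notch2 made up 73.2% to 76.1% of their summed CPM per kb in vehicle and 72.4% to 75.6% in naive libraries. Of the summed CPM per kb of Jag1 and Jag2, with the Delta-like ligands left out, Jag1 made up 81.4% to 87.2% and 87.2% to 93.4%.

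**Figure D1:**
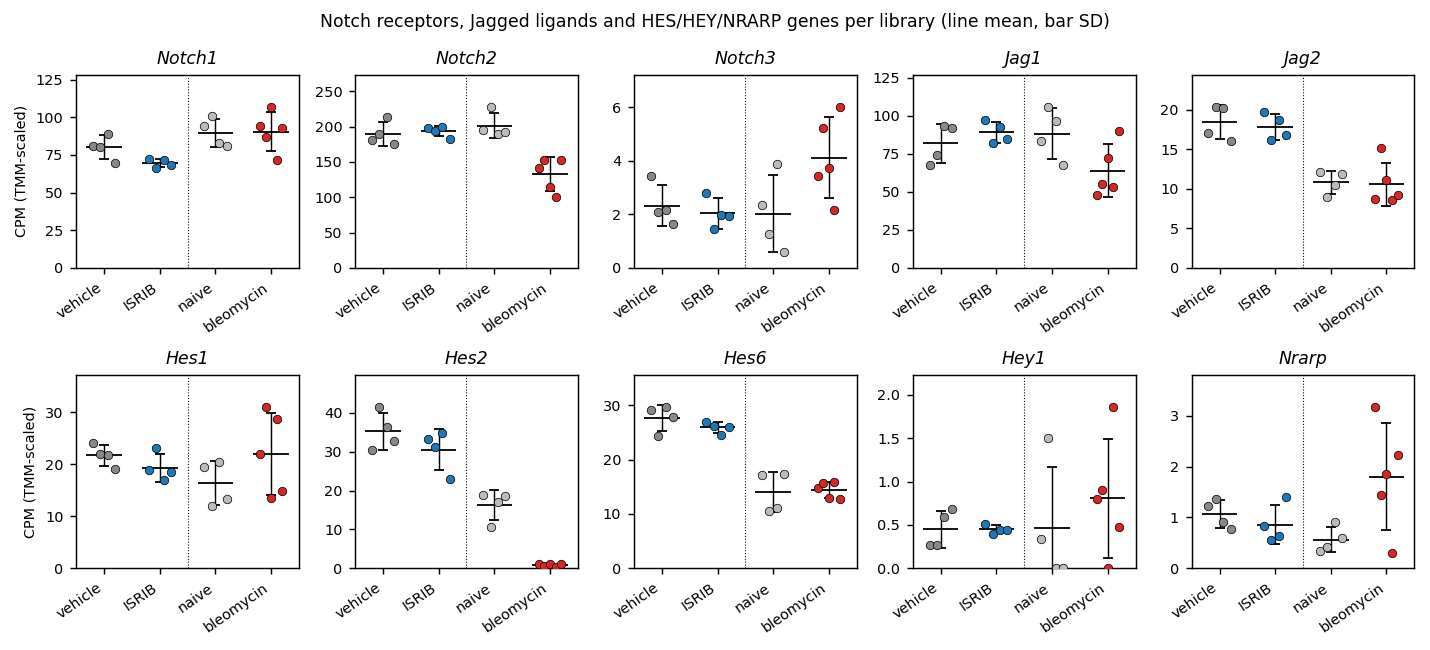
TMM-scaled CPM of each gene in every library (points), with the group mean (line) and SD (bar); the dotted line parts the poly(A) set (vehicle, ISRIB) from the total-RNA set (naive, bleomycin). Hes2 is at 10.7 to 18.8 CPM in naive and 0.309 to 1.11 CPM in bleomycin libraries, and the 4 ISRIB libraries overlap the vehicle libraries for each gene.

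The receptors. Notch1 (ENSMUSG00000026923, chromosome 2, 26457903 to 26516663 of GRCm38) was at 81.1, 80.5, 89 and 69.8 CPM in vehicle 1 to 4 and at 72, 66.3, 71.5 and 68.2 CPM in ISRIB 1 to 4. ISRIB libraries were mostly the lower ones, and the groups overlapped only through vehicle 4. The log2 fold change was -0.21 (SE 0.07), with an adjusted p of 0.133 by edgeR's quasi-likelihood test (Benjamini-Hochberg over 12054 genes), so the difference did not pass. Without vehicle 4 it was -0.27 with an adjusted p of 0.0338, and over 13 alternatives the adjusted p ran from 0.0338 to 0.299. Notch2 (ENSMUSG00000027878, chromosome 3, 98013527 to 98150361) was at 181, 189, 213 and 175 CPM after vehicle and 198, 194, 200 and 183 after ISRIB. Its change was 0.03 (SE 0.06, adjusted p 0.874), and the groups overlapped. As a share of the 3 receptors per kb, Notch1 stood at 23% to 24.9% in vehicle and 20.4% to 21.8% in ISRIB libraries. This split was chosen after its values were seen and has no test.

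After bleomycin the abundant receptors parted. Notch2 was at 195, 228, 189 and 193 CPM in naive 1 to 4 and at 141, 153, 115, 100 and 153 CPM in bleomycin 1 to 5. Every bleomycin library lay below every naive library, and the log2 difference was -0.60 (SE 0.13). Notch1 was at 93.9, 101, 82.9 and 81.1 CPM in naive and 93.9, 86.6, 107, 71.5 and 93.1 CPM in bleomycin libraries, a log2 difference of 0.02 (SE 0.13). Its sign turned with the replicate block (-0.01) and without naive 3 (-0.02), naive 4 (-0.03) or bleomycin 3 (-0.05). Notch2 made up 57.1% to 67.8% of the receptor CPM per kb after bleomycin, below the naive range, and Notch1 29.1% to 40.4% against 24.1% to 26.5%.

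Notch3 (ENSMUSG00000038146, chromosome 17, 32120820 to 32166852), the receptor of vascular smooth muscle and pericytes, was scarce in both sets. It had 17 to 39 counts per library after vehicle and 18 to 44 after ISRIB, with a log2 change of -0.18 (SE 0.28, adjusted p 0.834). Its sign turned without vehicle 1 (0.06). In the total-RNA set Notch3 was at 2.35, 1.28, 3.9 and 0.596 CPM in naive and 3.44, 5.23, 3.72, 2.17 and 6.02 CPM in bleomycin libraries, a log2 difference of 1.07 (SE 0.53) with groups that overlapped. The highest Notch3 values were in bleomycin 5 and bleomycin 2. Bleomycin 5 also had the highest endothelial marker sum (80.3 CPM) and bleomycin 2 the highest mesenchymal one (95.5 CPM), and their part in the Notch3 values was not tested. Notch4, the endothelial receptor, was at 2.53 CPM after vehicle and 1.8 CPM after ISRIB (adjusted p 0.368) and fell below the filter in the total-RNA set. Exons of Notch1 (1389 bases) and Notch3 (488 bases) overlap gene models on the opposite strand, and exons of Notch2 (541 bases) overlap one on the same strand. How the counting treated strand and shared exons is not known here, so these levels are less certain.

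The 250 bases before the RefSeq start (GRCm38.p6) are shown for Notch2 and Notch1, the receptors that differed in their bleomycin values, and for the feedback gene Nrarp. Capitals mark the N box CACNAG, a site that HES proteins can bind, on either strand. The RBPJ core TGGGAA was also searched on both strands. The windows lie at chr3:98013288-98013537 (plus strand) for Notch2, chr2:26503823-26504072 (minus strand) for Notch1 and chr2:25180508-25180757 (plus strand) for Nrarp. Their bases inside exons of the GENCODE gene number 11, 2 and 0. The Notch1 window lies within the span of the GENCODE gene, which begins at 26516663 on the minus strand. The RefSeq start used for Notch1 is therefore not the outermost GENCODE start.
Notch2: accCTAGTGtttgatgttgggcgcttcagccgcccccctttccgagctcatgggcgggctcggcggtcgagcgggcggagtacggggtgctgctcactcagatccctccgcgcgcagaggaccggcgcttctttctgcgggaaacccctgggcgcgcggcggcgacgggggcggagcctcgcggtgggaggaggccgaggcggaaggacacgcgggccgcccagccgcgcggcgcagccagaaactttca
Notch1: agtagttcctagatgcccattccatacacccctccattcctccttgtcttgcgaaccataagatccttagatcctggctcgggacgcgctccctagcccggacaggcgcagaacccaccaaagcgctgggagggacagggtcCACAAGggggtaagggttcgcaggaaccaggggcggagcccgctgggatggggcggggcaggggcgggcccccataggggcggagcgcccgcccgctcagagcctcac
Nrarp: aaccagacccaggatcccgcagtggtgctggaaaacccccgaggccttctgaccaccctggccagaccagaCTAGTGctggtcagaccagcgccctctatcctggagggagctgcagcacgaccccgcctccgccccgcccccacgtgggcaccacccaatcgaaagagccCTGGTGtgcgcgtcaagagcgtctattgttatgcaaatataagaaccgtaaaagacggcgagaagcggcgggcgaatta

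Of the 10 genes 7 were in the RefSeq promoter table, with 8 windows. Hes1, Hes2 and Hey1 were not among them. CACNAG was in 5 of the 8 windows, and in 36.7% of all 32851 promoter windows of that length. TGGGAA was in 0 of the 8, and in 21.6% of all windows. Notch2 and Notch1 have 1 N box each, which begin 247 and 108 bases before the start, and Nrarp has 2, beginning 179 and 79 bases before it. A match is a description of these letters and not evidence of binding.

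The ligands. Jag1 (ENSMUSG00000027276, chromosome 2, 137081456 to 137116644) was at 67.7, 74.6, 93.5 and 91.8 CPM after vehicle and 97.2, 82.3, 92.5 and 85 CPM after ISRIB. The groups overlapped, and the log2 fold change was 0.12 (SE 0.09, adjusted p 0.545 by edgeR). In naive libraries Jag1 was at 83.2, 106, 96.7 and 67.7 CPM. After bleomycin it was at 47.9, 55, 72.6, 53.5 and 90.3 CPM, so 3 of 5 libraries lay below all naive libraries and the log2 difference was -0.46 (SE 0.18). Without bleomycin 5 the difference was -0.62.

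Jag2 (ENSMUSG00000002799, chromosome 12, 112907819 to 112929776) was at 16.1 to 20.4 CPM after vehicle and 16.2 to 19.7 CPM after ISRIB. Its log2 fold change was -0.05 (SE 0.10, adjusted p 0.874 by edgeR), and it turned to 0.00289 without vehicle 3. In the total-RNA set it was at 8.97 to 12.1 CPM in naive and 8.66 to 15.2 CPM in bleomycin libraries, a log2 difference of -0.02 (SE 0.25). That sign turned in 7 of 15 alternatives. The Delta-like ligands were scarce. Dll4, the ligand of vessel sprouting, was at 1.35 CPM after vehicle and 0.988 CPM after ISRIB (adjusted p 0.65 by edgeR). In the total-RNA set Dll4 was below the filter (0.841 CPM in naive and 1.58 CPM in bleomycin libraries). Dll1 was below the filter in the poly(A) set (0.421 CPM after vehicle and 0.688 CPM after ISRIB). In the total-RNA set Dll1 was at 3.4 CPM in naive and 2.76 CPM in bleomycin libraries (adjusted p 0.766 by edgeR). Exons of Dll1 overlap an opposite-strand gene model by 867 bases. Dll3 had 4 counts over the 4 vehicle and 0 over the 4 ISRIB libraries.

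The HES/HEY genes. Hes2 (ENSMUSG00000028940, chromosome 4, 152158867 to 152162469) encodes a basic helix-loop-helix repressor of the HES family. It was at 18.8, 10.7, 17.1 and 18.5 CPM in naive 1 to 4, from 56, 50, 57 and 62 counts. In bleomycin 1 to 5 it was at 1.06, 0.541, 1.08, 0.309 and 1.11 CPM, from 4, 3, 7, 1 and 7 counts. The highest bleomycin library lay far below the lowest naive library. The log2 difference was -4.24 (SE 0.38), or 18.9-fold lower, and ran from -4.41 to -4.09 over 15 alternatives. Of 11223 genes tested, 5 (Hes2 included) had a log2 difference that low. These values chose the gene and support nothing further.

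Hes2 was independently measured in the poly(A) set. It was at 30.4, 41.5, 36.3 and 32.7 CPM in vehicle 1 to 4 and at 33.4, 31.1, 34.8 and 22.9 CPM in ISRIB 1 to 4, so it was a well-detected gene of uninjured AT2 cells with both kits. ISRIB 4 was the lowest library, and the groups overlapped. The log2 fold change after ISRIB was -0.20 (SE 0.12, adjusted p 0.411 by edgeR), and without ISRIB 4 it was -0.09. ISRIB 4 also had the lowest airway marker sum (2362 CPM), whose part in this value was not tested.

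Hes1 (ENSMUSG00000022528, chromosome 16, 30064384 to 30067796), the best known Notch target, was at 24.1, 21.9, 21.7 and 19.1 CPM after vehicle and 18.8, 23.1, 16.9 and 18.5 CPM after ISRIB. The log2 fold change was -0.17 (SE 0.10, adjusted p 0.451 by edgeR). In the total-RNA set Hes1 was at 19.5, 12, 20.4 and 13.4 CPM in naive and 22, 31, 13.5, 28.8 and 14.9 CPM in bleomycin libraries. Bleomycin 1, 2 and 4 lay above all naive libraries and bleomycin 3 and 5 within their range, and the log2 difference was 0.43 (SE 0.26). Hes1 thus did not share the low values of Hes2.

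Hes6 (ENSMUSG00000067071, chromosome 1, 91411483 to 91414038), whose protein can oppose HES1, was at 24.3 to 29.7 CPM after vehicle and 24.6 to 26.9 CPM after ISRIB, a log2 change of -0.10 (SE 0.08, adjusted p 0.607 by edgeR). It was at 10.5 to 17.3 CPM in naive and 12.7 to 15.8 CPM in bleomycin libraries, with a log2 difference of 0.04 (SE 0.22) that turned without naive 2 (-0.08) or naive 3 (-0.05). Hey1 (ENSMUSG00000040289, chromosome 3, 8663359 to 8667256), a target of Notch that is prominent in endothelium, was near the limit of detection. It had 3, 3, 9 and 7 counts after vehicle and 8, 5, 5 and 5 after ISRIB, 1, 7, 0 and 0 in naive and 3, 5, 0, 6 and 3 in bleomycin libraries. It was below the filter in both sets, and no difference was detectable at this depth.

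The makeup of the HES/HEY group by CPM per kb therefore differed between naive and bleomycin libraries. In naive libraries Hes1 made up 28.4% to 44.2%, Hes6 27.1% to 41.3% and Hes2 25% to 30.3% of the 4 genes' sum. After bleomycin Hes2 made up 0.498% to 2.91%, Hes1 46.8% to 62.4% and Hes6 35.6% to 50.3%. In the poly(A) set Hes2 made up 29.2% to 39.3% after vehicle and 26.8% to 37.4% after ISRIB. These shares carry the Hes2 values that chose the gene and have no test.

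**Figure D2:**
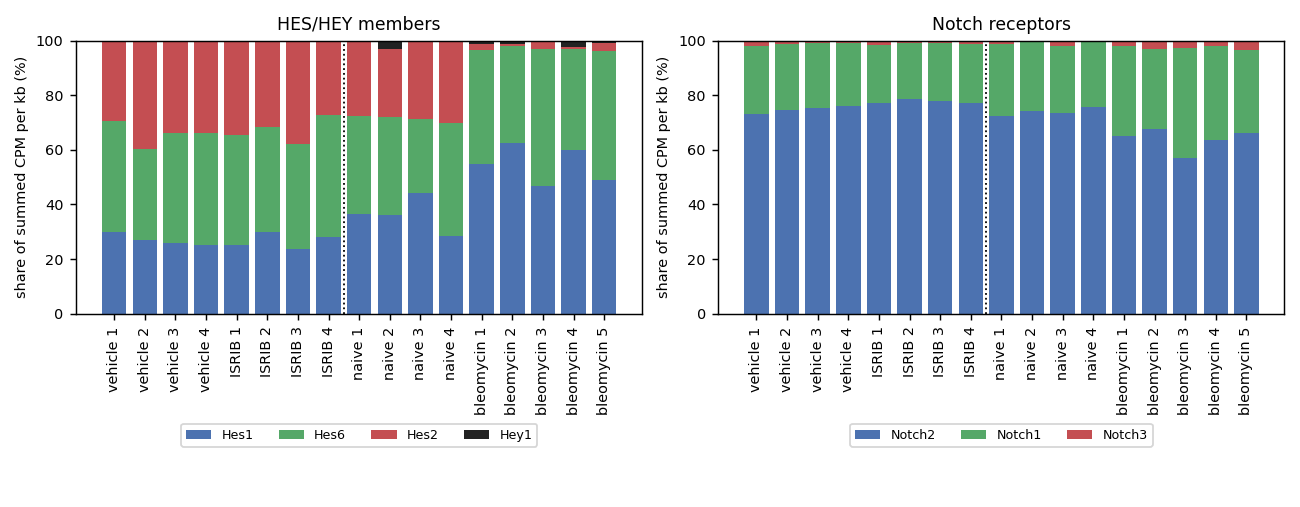
Share of each gene in the summed CPM per kb of the 4 HES/HEY genes (left) and of the 3 receptors (right), 1 bar per library, with the dotted line between the kits. Hes2 takes 25% to 30.3% of the HES/HEY sum in naive and 0.498% to 2.91% in bleomycin libraries, and Notch2 72.4% to 75.6% and 57.1% to 67.8% of the receptor sum.

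Nrarp (ENSMUSG00000078202, chromosome 2, 25180758 to 25183339), the feedback inhibitor, had 14, 15, 14 and 8 counts after vehicle and 13, 7, 7 and 16 after ISRIB. Its log2 fold change was -0.33 (SE 0.37, adjusted p 0.742 by edgeR). In the total-RNA set it had 1, 2, 3 and 2 counts in naive and 12, 8, 12, 1 and 14 counts in bleomycin libraries, or 0.335 to 0.901 and 0.309 to 3.17 CPM. Bleomycin 1, 2, 3 and 5 lay above all naive libraries and bleomycin 4 below them. Nrarp was under the filter there, and 2051 of its 2582 exon bases overlap a gene model on the opposite strand.

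Over the group as a whole, 9 of the 10 genes passed the filter in the ISRIB comparison and 0 of these 9 were called at an adjusted p under 0.05, where 2.20% of all genes tested were called (1.10% higher and 1.10% lower). DESeq2 and limma-voom also called 0. At an unadjusted p under 0.05 there was 1, Notch1 (0.00754). The median log2 fold change of the 9 was -0.17, with 7 below 0 and 2 above, and all genes tested had a median of -0.00. Their median absolute change was 0.17, against 0.10 over all genes tested. None of the 9 had groups that did not overlap, against 8.65% of all genes. A p that misses the threshold does not show that ISRIB left these genes unchanged.

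In the bleomycin comparison 8 of the 10 passed the filter and 2 of these were under the same threshold, both lower. Of all genes tested 20.5% were called, 11.2% higher and 9.31% lower. The same 2 of 8 had groups that did not overlap, against 19.7% of all genes. Since values of this comparison chose the group, nothing is read from these counts. The median of the 8 was 0.00, with 4 above and 4 below.

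**Figure D3:**
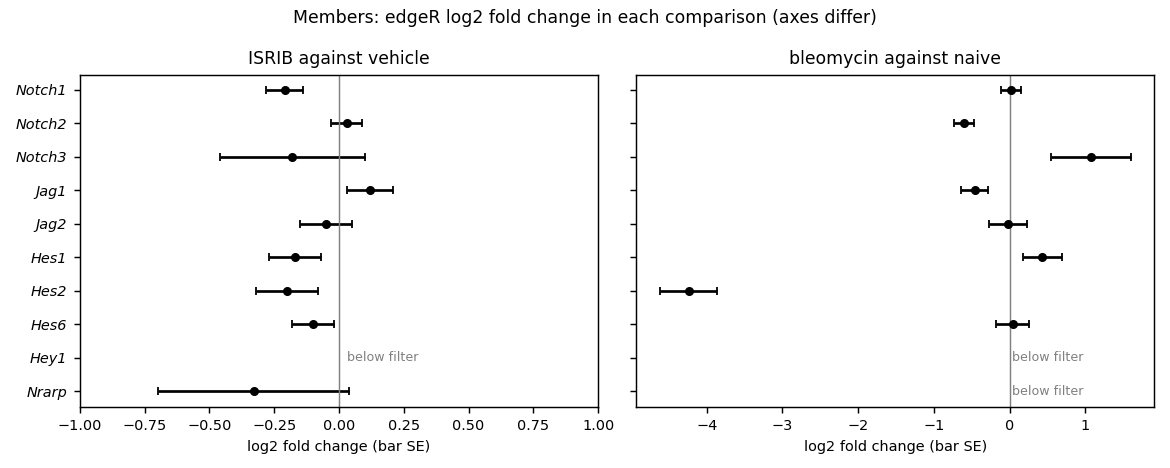
edgeR log2 fold change (point) and SE (bar) of each gene after ISRIB (left) and after bleomycin (right), on axes of different length. Changes after ISRIB lie between -0.33 and 0.12, while after bleomycin Hes2 stands at -4.24 and Notch2 at -0.60. Genes below the filter are marked.

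By a rule on profile likeness, the 5 genes nearest to Hes2 over the 9 total-RNA libraries were Cst8, mt-Ti, Prdm1, Gm23344 and Slc7a2. Likeness was the root mean square distance of centred log2(CPM + 1), ranked over 9567 genes with at least 5 CPM in naive libraries. The distances ran from 0.46 (Cst8) to 0.60 (Slc7a2), which are low because the nearest genes were taken. Cst8, a cystatin gene, was at 22.5 ± 3.81 CPM in naive (SD, n = 4) and 2.82 ± 1.19 CPM in bleomycin libraries (n = 5). Prdm1, which encodes the repressor BLIMP1, was at 15.4 ± 3.56 and 2.34 ± 1.29 CPM. Slc7a2, a transporter of basic amino acids, was at 33.6 ± 5.05 and 5.92 ± 1.62 CPM. The mitochondrial tRNA gene mt-Ti was at 15.8 ± 10.2 and 0.75 ± 0.427 CPM. Gm23344, a small nucleolar RNA gene, was at 9.78 ± 6.22 and 0.94 ± 0.285 CPM. These genes were chosen for this likeness, which has no test. The ranking rests on the Hes2 values that chose the group, and the floor of 5 CPM applied to naive libraries only.

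A further 55 genes of the pathway were taken by role, so that the group could be set among its partners. Per kb of exon the highest in vehicle libraries were Ncstn among the cutting enzymes (22.4 CPM per kb), Kat2b in the nuclear complex (14.9) and Ctbp1 among RBPJ corepressors (31.1). Dtx4 led in receptor turnover (11.9), Mib1 in ligand endocytosis (9.11) and Rfng among the glycosyltransferases (8.1). Tle5 led the 5 TLE genes (100), which were listed as HES corepressors. It is also named Aes and was placed there by family, and its action as a corepressor was not examined. In naive total-RNA libraries Rfng (5.5), Mib1 (15.4), Dtx4 (10.6) and Tle5 (50.7 CPM per kb) again led their roles, with Adam10 (16.3) and Ep300 (15.7) in place of Ncstn and Kat2b. Of the other HES and HEY genes none of 6 passed the filter in either set. Hes7 was the highest of these (0.232 CPM per kb after vehicle), and Hes5 had no counts in any of the 17 libraries. Heyl had 0 counts in each naive library and 0, 3, 8, 0 and 2 in bleomycin 1 to 5.

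After ISRIB 42 of the 55 were tested and 4 were called, 3 higher (Tle1, Tle4 and Kat2b) and 1 lower (Dtx4), against 2.20% of all genes. The median log2 fold change of the 42 was 0.08. All 5 TLE genes had positive values, from 0.11 (Tle5) to 0.59, and 2 of 5 were called. Tle1, a Groucho-type corepressor, was at 46.2, 46.8, 50.9 and 51.7 CPM after vehicle and rose to 63.7, 73.6, 77.6 and 80.6 CPM after ISRIB. Its log2 fold change was 0.59 (SE 0.07, adjusted p 0.000892 by edgeR), and it was called in all 13 alternatives. This rise was known from earlier results when the list was written, and is no independent evidence. The counts called among the 42 genes and among the 5 TLE genes include Tle1, so they are only a description.

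Tle4, its paralog, rose from 31.4, 33, 28.3 and 26 CPM to 39.3, 33.5, 42.6 and 41.4 CPM after ISRIB, with each ISRIB library above each vehicle library. The log2 fold change was 0.40 (SE 0.09, adjusted p 0.0264 by edgeR). That call was lost with the replicate block (0.0503) and without vehicle 1, 3 or 4 or ISRIB 1, 3 or 4 (0.0502 to 0.0772). Tle3 (0.31, adjusted p 0.098), Tle2 (0.26, 0.127) and Tle5 (0.11, 0.267) did not pass. Kat2b, an acetyltransferase that works with the Notch complex, rose from 72.5 to 85.8 CPM in the mean, by 0.24 on the log2 scale (SE 0.06, adjusted p 0.0387 by edgeR). The call was lost with the replicate block (0.0587) and without vehicle 1, 2 or 3 or ISRIB 1, 3 or 4 (0.0538 to 0.141). Dtx4, a Deltex ubiquitin ligase, fell from 65, 63, 65.7 and 55.1 CPM to 50.9, 54.7, 48.2 and 44.2 CPM. Its log2 fold change was -0.33 (SE 0.07, adjusted p 0.0271 by edgeR), lost without vehicle 1, 2 or 3 or ISRIB 3 or 4 (0.0675 to 0.0961). Rbpj itself was at 22 and 19.2 CPM (-0.19, adjusted p 0.352).

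After bleomycin 40 of the 55 were tested and 10 were called, 6 higher and 4 lower, against 20.5% of all genes. Their median log2 fold change was -0.06. Of the 5 TLE genes 4 were called, Tle5 among them, in both directions. Tle2 fell from 161, 142, 134 and 142 CPM to 83.3, 49.6, 84.6, 63.7 and 73.5 CPM, a log2 change of -1.03 (SE 0.14, adjusted p 5.62e-05 by edgeR). Tle4 fell from 30.1 to 39.5 CPM in naive libraries to a range of 15.4 to 23.5 CPM (-0.90, SE 0.18, adjusted p 0.00129). Tle3 rose from 32.5, 38.5, 55.5 and 44.4 CPM to 79.6, 77.4, 55.9, 112 and 61.3 CPM, a log2 change of 0.84 (SE 0.19, adjusted p 0.00451). Bleomycin 3 stood just above naive 3. Tle5 rose by 0.41 (SE 0.13, adjusted p 0.0356), a call lost with the replicate block (0.0647) and without naive 2, 3 or 4 or bleomycin 2 or 3 (0.0501 to 0.115). Tle1 was at 57.4 and 40.2 CPM (-0.52, adjusted p 0.0633). Exons of Tle1 and Tle2 overlap opposite-strand models by 247 and 98 bases.

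Ligand endocytosis, the step by which the signal-sending cell pulls on the receptor, had 3 of 4 genes called after bleomycin, 2 higher and 1 lower, where 20.5% of all genes tested were called (11.2% higher and 9.31% lower). The ubiquitin ligase gene Neurl1b rose from 5.37, 3.63, 6.61 and 5.07 CPM to 17.7, 15.7, 9.14, 8.97 and 15.2 CPM, a log2 change of 1.39 (SE 0.30, adjusted p 0.00348 by edgeR). Neurl1a rose from 34 counts over 4 libraries to 190 over 5 (1.60, SE 0.43, adjusted p 0.0127), and without naive 2 the adjusted p was 0.0512. Its exons overlap a same-strand gene model by 690 bases. Mib2 fell from 24.4 to 29.7 CPM in naive libraries to 12.7 to 18.3 CPM (-0.78, SE 0.18, adjusted p 0.00523), with no overlap. Mib1, the highest of the 4 in naive libraries (15.4 CPM per kb), did not pass (-0.35, SE 0.13, adjusted p 0.0666 by edgeR). Every bleomycin library had less Mib1 than every naive library.

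Among the cutting enzymes 2 of 9 tested were called after bleomycin, a share near the 20.5% of all genes tested. Adam10, the protease of the first cut, rose from 85.2, 80.6, 79 and 76.3 CPM to 125, 134, 111, 95.9 and 109 CPM after bleomycin, a log2 change of 0.52 (SE 0.12, adjusted p 0.00454 by edgeR). Ncstn, the gamma-secretase subunit nicastrin, rose from 43.5 to 59.4 CPM in the mean (0.45, SE 0.16, adjusted p 0.047). That call was lost with limma-voom (0.0564), with the replicate block (0.055) and without naive 2, 3 or 4 or bleomycin 2 or 4 (0.0654 to 0.179). Maml3, a Mastermind coactivator, was the 1 gene called among 7 of the nuclear complex. It fell from 144, 131, 123 and 153 CPM to 88.6, 61.9, 87.3, 83.8 and 86.6 CPM, a log2 change of -0.75 (SE 0.12, adjusted p 0.000323). Rbpj was at 15.6 and 15.8 CPM (0.01, adjusted p 0.981). Type 1, transitional and mesenchymal marker sums were higher in every bleomycin library than in every naive library, while the endothelial ranges overlapped. The airway markers Foxj1 and Ccdc153 were also called higher. The part of these cell types in all these differences was not tested.

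**Figure D4:**
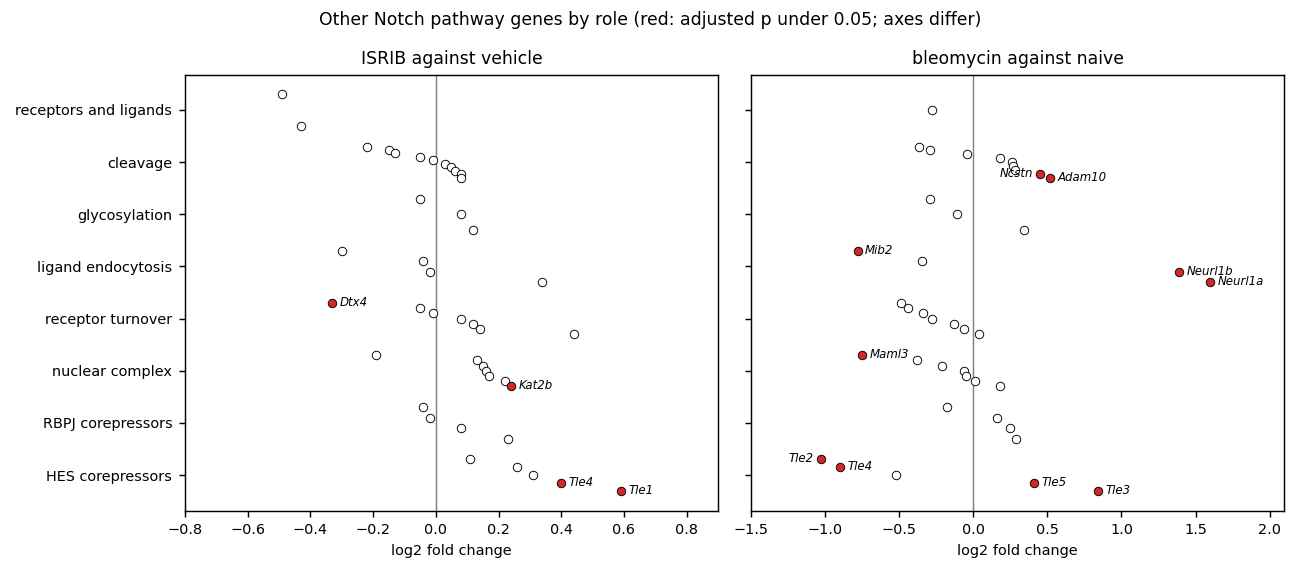
edgeR log2 fold change of the other pathway genes by role after ISRIB (left, 42 genes) and after bleomycin (right, 40 genes), on axes of different length; red points passed an adjusted p of 0.05 and carry their name. After ISRIB the 5 TLE genes (the HES corepressors row) lie between 0.11 and 0.59, and after bleomycin between -1.03 and 0.84.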

How the data were processed

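The authors deposited raw counts for 43430 Ensembl genes in 1 table per kit, which the values show to be whole numbers. Per the submitters' processing notes, bcl2fastq 2.19.1, FastQC, Trimmomatic 0.36, STAR 2.6.0, HTSeq 0.11.2 and build mm10 were used; the sources used here do not give the annotation or strand setting. Symbols, positions and exon lengths came from GENCODE M21 (GRCm38), which held 42546 of the IDs, all 65 pathway and all 51 marker genes among them.

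Each table was fitted whole: filterByExpr (minimum count 10, minimum total 15), TMM factors, a model with only the group, and edgeR (4.0.16, under R 4.3.3) for quasi-likelihood F tests, two-sided, with Benjamini-Hochberg adjustment. A call is an adjusted p under 0.05. CPM used effective library sizes. Fold changes are without shrinkage, and the SE is the change divided by the root of F. The procedure was tested on simulated data. Alternatives were DESeq2 1.42.0, limma-voom (limma 3.58.1), RLE factors, no filter, a replicate block, single libraries left out and, after bleomycin, ribosomal, mitochondrial and small RNA genes left out. The members and lists were chosen with earlier results of these data known. Named were all 10 members, pathway genes past the threshold, the highest of each role per kb (an item under this rule is not reported here), and the 5 profiles nearest to Hes2. Other genes named below these (Rbpj, Notch4, Dll3, Hes5, Heyl and Tle genes that did not pass) were chosen after their values were seen. So were the markers given with values of their own (Krt19, Etv5, Sftpc, Sftpd, Napsa, Scgb1a1, Foxj1 and Ccdc153). Replicates differed by more than counting error (chi-squared per degree of freedom 3.53 to 48.1).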

Additional observations from a re-analysis of the deposited data

Results flagged for a closer look

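In naive libraries Notch2 stood at 195, 228, 189 and 193 CPM, and the 228 CPM of naive 2 lay apart: its gap to the next library was 0.861 of the group's range, above the limit of 0.829 for 4 samples. This was 1 of 40 sets of a gene and a group examined, and chance gives such a gap in about 1 of 20 sets. Without naive 2 the log2 difference of Notch2 between bleomycin and naive libraries was -0.53, and with it -0.60.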

How the results depend on the processing

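After ISRIB the number of all genes called was 265, against 408 with DESeq2, 648 without the filter and 86 to 269 with single libraries left out (86 without vehicle 1, 102 without vehicle 2, 159 without ISRIB 4). Members called were 0, and 0 to 1 with single libraries left out. Other pathway genes called were 4, against 8 without the filter, 6 with DESeq2 and 1 to 4 with single libraries left out (1 without vehicle 1 or ISRIB 4, 2 without vehicle 3 or ISRIB 3). After bleomycin 2304 genes were called, 1554 to 2584 with single libraries left out. Members under the threshold were 2, and 3 without the filter, with the replicate block and without naive 4 or bleomycin 5. Values of this comparison chose the group, so these member counts are only a description. Other pathway genes called were 10, and 7 to 12 with single libraries left out.

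Signs of member changes turned in 6 cases. After ISRIB these were Notch2 without vehicle 4 (-0.01, with single libraries left out up to 0.09), Notch3 without vehicle 1 (0.06, down to -0.39) and Jag2 without vehicle 3 (0.00289, down to -0.11). After bleomycin Notch1 turned with the replicate block (-0.01) and without naive 3 (-0.02), naive 4 (-0.03) or bleomycin 3 (-0.05, up to 0.09 without others), and Hes6 without naive 2 (-0.08) or naive 3 (-0.05, up to 0.16 without others). Jag2 turned without the filter (0.00147), with the replicate block (0.00328) and without naive 1 (0.03), naive 4 (0.02) or bleomycin 1, 4 or 5 (0.04 each, down to -0.19 without bleomycin 2). The cause was not tested. Levels scaled to raw totals stayed within 1 SD for all 10 genes.

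Equal replicate numbers gave no sign of pairing. Correlations of deviations from group means were -0.118 to 0.0757 in the poly(A) set and -0.0407 to 0.05 in the total-RNA set. Between libraries of unequal number they were -0.177 to 0.148 and -0.165 to 0.103. With so few libraries this cannot show that none were paired, which is not known here. With the replicate block 277 genes were called after ISRIB and 2187 after bleomycin, and 3 and 10 of them were other pathway genes. Hey1 and, after bleomycin, Nrarp had too few counts for a test.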

Other observations

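The 5 bleomycin libraries were not alike. Bleomycin 3 and bleomycin 5 differed least from each other (chi-squared per degree of freedom 7.57, against 16.9 to 48.1 for the other pairs). They had the lowest Hes1 (13.5 and 14.9 CPM, against 22 to 31 CPM in the other 3) and the highest Jag1 (72.6 and 90.3 CPM, against 47.9 to 55 CPM). Their mesenchymal marker sums were 12.1 and 17.4 CPM, against 20.1 to 95.5 CPM, and their transitional sums 463 and 446 CPM, against 482 to 618 CPM. Their AT2 marker sums were 88705 and 77955 CPM, against 50423 to 74504 CPM. The endothelial sums did not part them from the others (44.9 and 80.3 CPM, against 22.5 to 61.7 CPM). Hes2 was at 1.08 and 1.11 CPM in them, from 7 counts each, and at 0.309 to 1.06 CPM in the other 3. The 1.06 CPM of bleomycin 1 came from 4 counts, and such low counts do not settle an order. The pattern was seen in the values and not tested.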
